A study of Mus musculus with 2 samples.

Results

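Caspases are cysteine proteases that cut their substrates after aspartate and are made as inactive zymogens. Initiator caspases are switched on by assembly on adaptor platforms, executioner caspases are cleaved by the initiators and then dismantle the cell, and inflammatory caspases process cytokines and open membrane pores through gasdermins. In the growth plate, chondrocytes proliferate in the round and columnar zones and end as hypertrophic cells, many of which die before bone replaces the cartilage. Here 8 caspase genes, *Casp1*, *Casp2*, *Casp4*, *Casp6*, *Casp8*, *Casp9*, *Casp12* and *Casp14*, were followed through every probe set annotated to that gene alone. These were 13 of the 34945 probe sets named by a single gene, and 8 of the 18193 genes so named. The other genes of the family were not analysed here.

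Expression was measured on 2 Affymetrix mouse arrays in femoral cartilage of *Tric-b*-knockout embryos at E17.5, with C57BL/6J and 129Sv given as strains. The first array was hybridized with RNA from the part of the plate rich in columnar and hypertrophic chondrocytes, and the second with RNA from the part rich in round chondrocytes, each RNA being a mixture of 3 preparations. The methods describe the round specimen alone. They are called the columnar/hypertrophic zone and the round zone. *Tric-b* (*Tmem38b*) encodes an ER cation channel, and both specimens were labelled as knockouts of it, so the values compare zones of knockout cartilage and not genotypes. With 1 array per zone there was no replicate error, no test and no p-value, and the enriched sections still held other cells. The 8 cartilage genes examined, *Col2a1* and *Acan* among them, were detected in both zones. The type X collagen gene *Col10a1*, which marks hypertrophic cells, gave 25421 in the columnar/hypertrophic zone and 55.2 in the round zone. Of 6 hypertrophic genes measured, 4, *Col10a1* among them, were higher in the columnar/hypertrophic zone. *Vegfa* went the other way, with 1877 there and 3095 in the round zone, and *Mmp13* was too dim to compare. Of 7 columnar and prehypertrophic genes, 5 were higher in the columnar/hypertrophic zone and 2, *Ucma* among them, in the round zone.

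Values are probe set signals in the linear units of the deposited table. Signals at or under 65.9, the 40th percentile of the pooled signals of the 2 arrays, were taken as not distinguishable from background, and this value is called the floor. A difference is log2 of the signal in the columnar/hypertrophic zone over the signal in the round zone. A gene with a signal under the floor in one array was set to the floor there, so that its difference is a bound. Where a gene had several probe sets, the one brightest on average (mean log2) stood for it. Fewer cells expressing a gene and less RNA per cell cannot be told apart in these tissue samples. Levels are not compared between genes, since probe sets differ in how strongly they bind.

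Caspase transcripts were detected in both zones. Of the 8 genes, 5 were above the floor in the columnar/hypertrophic zone, where 65% of all genes were, and 6 were above it in the round zone, where 66.5% of all genes were. *Casp12*, the ER-associated member, was the gene seen in the round zone alone, and *Casp1* and *Casp4* lay under the floor in both. By a size rule of 2-fold, 0 of the 6 compared caspases were higher in the columnar/hypertrophic zone, against 4.28% of 12761 compared genes. *Casp12* was the 1 caspase higher in the round zone, against 6.25% of genes. The 6 differences ran from -1.89 to 0.94, with a median of -0.15 beside -0.04 over all compared genes. Counts this small do not set the family apart from all genes.

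**Figure D1:**
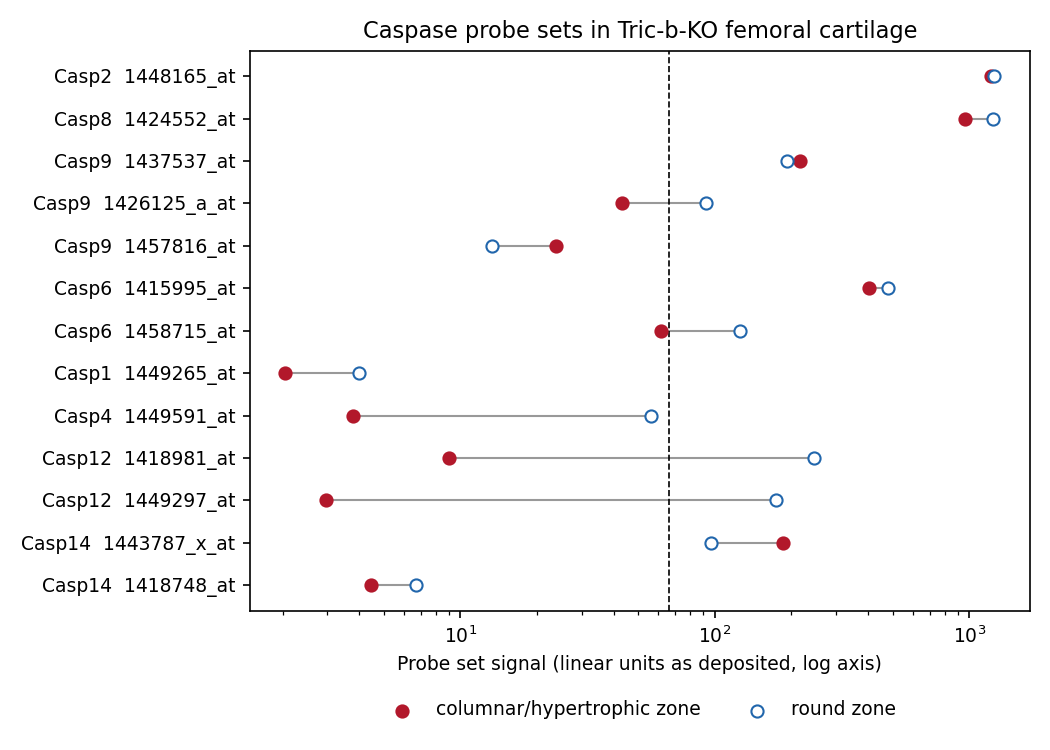
Signals of all 13 caspase probe sets (log axis) in the columnar/hypertrophic zone (filled circles) and the round zone (open circles), 1 array per zone, with the floor of 65.9 as a dashed line. Both *Casp12* probe sets lie at 9.05 and 2.95 in the columnar/hypertrophic zone and at 244 and 173 in the round zone, whereas the brighter probe sets of *Casp2*, *Casp8*, *Casp6* and *Casp9* have nearly the same signal in both.

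The 3 initiator caspases were detected in both zones, and none differed by 2-fold on its brightest probe set. *Casp2*, whose product is activated on the PIDD1 platform after centrosome or DNA damage, had signals of 1214 in the columnar/hypertrophic zone and 1254 in the round zone. Its difference was -0.05, and 8.32% of compared genes differed by less in either direction. *Casp8*, encoding the initiator of death receptor signaling, had signals of 965 in the columnar/hypertrophic zone and 1238 in the round zone. Its signal was 1.28-fold higher in the round zone, a difference of -0.36. For scale, differences read by separate probe sets of the same gene had a pooled SD of 0.34, taken over the 5446 genes that had several probe sets above the floor in both zones. This spread holds no variation between animals or preparations.

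*Casp9*, encoding the initiator of the mitochondrial pathway, had 3 probe sets that did not give one answer. The brightest had signals of 216 in the columnar/hypertrophic zone and 192 in the round zone, a difference of 0.17. The next had signals of 43.2 in the columnar/hypertrophic zone, which is under the floor, and 92.6 in the round zone, a bound of -0.49. The last had signals of 23.8 in the columnar/hypertrophic zone and 13.4 in the round zone and was not compared. The direction for *Casp9* therefore rests on which probe set is read, and the mean over its compared probe sets was -0.16.

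*Casp6*, the executioner caspase of the set, which cleaves lamin A, was detected in both zones. Its brighter probe set had signals of 404 in the columnar/hypertrophic zone and 480 in the round zone, a difference of -0.25. Its other probe set had signals of 61.5 in the columnar/hypertrophic zone and 126 in the round zone, a bound of -0.93. Both lay on the side of the round zone. The bound is at least 1.91-fold, so it does not settle whether the second probe set differed by 2-fold.

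Of the inflammatory caspases, *Casp12* differed and the others were hardly seen. *Casp12* encodes a caspase that resides at the ER membrane in mouse and has been linked to death under ER stress. Its brighter probe set had signals of 9.05 in the columnar/hypertrophic zone and 244 in the round zone, a difference of at least 3.71-fold. Its second probe set had signals of 2.95 in the columnar/hypertrophic zone and 173 in the round zone, a difference of at least 2.63-fold. Of 12761 compared genes, 156 had a difference further toward the round zone than the -1.89 of *Casp12*. Genes above the floor in the round zone alone numbered 934, or 5.13% of all genes. Their median bound was -0.44, and 40 of them had a larger bound than *Casp12*. The size of the bound depended on the floor, being -0.24 with a floor at the 60th percentile and -3.43 with one at the 20th.

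*Casp4*, whose product detects bacterial lipopolysaccharide in the cytosol, had signals of 3.78 in the columnar/hypertrophic zone and 56.1 in the round zone, both under the floor. It was compared with the floor at the 20th percentile, 22.7, where the round zone exceeded the other by at least 2.48-fold. *Casp1*, encoding the interleukin-1β-converting enzyme of inflammasomes, had signals of 2.05 in the columnar/hypertrophic zone and 3.99 in the round zone and was not distinguishable from background in either. *Casp1*, *Casp4* and *Casp12* follow each other on mouse chromosome 9 in the RefSeq annotation.

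Promoter sequences of *Casp12* and *Casp4* are shown to set the caspase that passed 2-fold beside its neighbour, whose signals were under the floor in both zones. Each runs from 250 bases before to 50 after an annotated RefSeq transcript start (GRCm38.p6, both on the + strand), 5′ to 3′, and capitals mark matches to the motifs named after them. Promoters of all 8 genes were found in the table, 9 in all, as *Casp4* has a pair of nearby starts, the first of which is printed.
Casp12, chr9:5345226-5345525: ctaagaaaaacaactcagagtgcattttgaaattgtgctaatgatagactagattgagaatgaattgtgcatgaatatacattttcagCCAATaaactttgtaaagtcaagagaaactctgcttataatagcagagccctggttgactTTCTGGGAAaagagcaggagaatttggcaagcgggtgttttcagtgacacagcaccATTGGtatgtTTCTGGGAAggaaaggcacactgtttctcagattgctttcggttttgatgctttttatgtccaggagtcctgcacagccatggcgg
Casp4, chr9:5308599-5308898: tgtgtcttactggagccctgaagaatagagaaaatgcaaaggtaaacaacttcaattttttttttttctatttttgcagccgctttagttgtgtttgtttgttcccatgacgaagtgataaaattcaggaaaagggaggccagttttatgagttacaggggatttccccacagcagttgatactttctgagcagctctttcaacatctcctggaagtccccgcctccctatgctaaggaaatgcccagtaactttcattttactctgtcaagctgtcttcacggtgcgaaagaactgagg
The motifs searched on both strands were the interferon-stimulated response element (GAAA, any 2 bases, GAAA), the STAT element (TTCNNNGAA), the CHOP-ATF4 element (TGATGNAA), the AP-1 site (TGANTCA), the TATA box (TATAAA) and the CCAAT box (CCAAT). The *Casp12* promoter held 2 STAT elements with identical letters, TTCTGGGAA, starting 102 and 36 bases before the start, and CCAAT boxes starting 162 and 46 bases before it. No match overlapped another. Of 32851 mouse promoters of this length, 8.3% held a STAT element, 0.457% held 2 or more, and 37.4% held a CCAAT box. Among the 8 caspases, 1 gene had a STAT element and 3 (*Casp2*, *Casp8* and *Casp12*) a CCAAT box. The other 4 motifs, held by 3.44% to 13.6% of all promoters, were matched in 0 of the 8. The *Casp4* window held no match to any of these letters. A match describes the letters and not a site in use.

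*Casp14*, which takes part in cornification of the epidermis, was detected on only one of its 2 probe sets. One had signals of 186 in the columnar/hypertrophic zone and 96.5 in the round zone, 1.92-fold higher in the columnar/hypertrophic zone, and represented the gene as the brighter one. The 2-fold size was passed by this probe set under each of 3 other scalings of the arrays, with differences from 1.03 to 1.20. Its identifier carries the suffix that Affymetrix gives to probe sets whose probes can also match other transcripts, and its row in the platform annotation lists no accession. The other, which the annotation pairs with a RefSeq transcript of *Casp14*, had signals of 4.46 in the columnar/hypertrophic zone and 6.67 in the round zone, under the floor in both. Of 12 epidermal marker genes, 7 were under the floor in both zones, *Krt14*, *Krt1*, *Flg* and *Ivl* among them. Of the 5 compared, 2 passed 2-fold toward the columnar/hypertrophic zone, beside 4.28% of all compared genes. There *Dsp* was at least 4.17-fold and *Perp* at least 2.93-fold higher. *Lor* and *Krt5* were detected in the round zone alone, with bounds of -0.94 and -0.43, and *Krt10* had a difference of 0.21. The summed signal of the list was 1025 in the columnar/hypertrophic zone and 709 in the round zone. Whether other transcripts bound the brighter probe set, and the part of epidermal cells in its difference, were not tested.

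**Figure D2:**
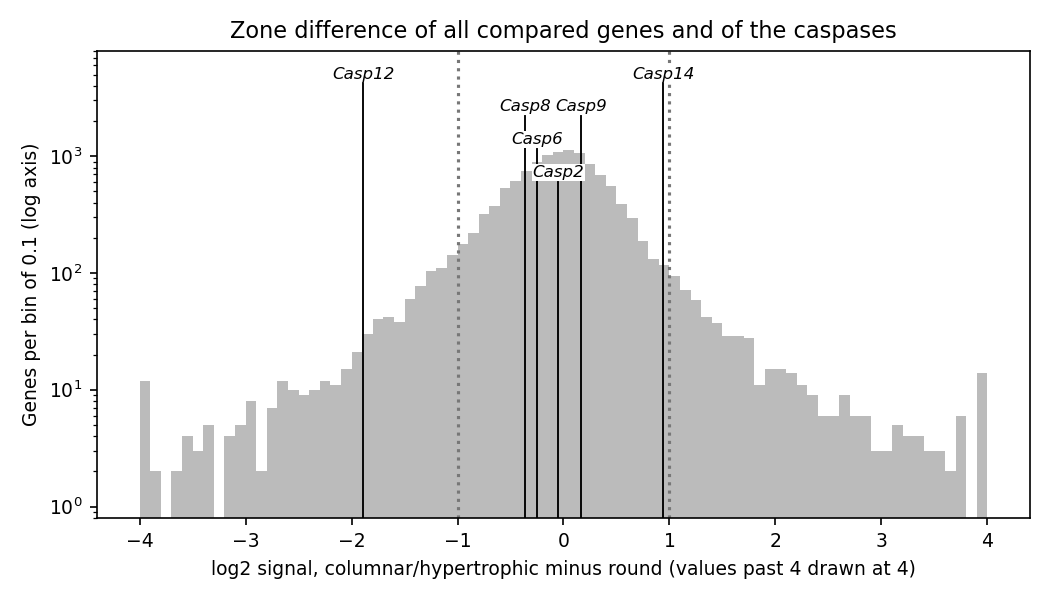
Histogram of the difference (log2 signal, columnar/hypertrophic minus round) of 12761 compared genes in bins of 0.1 with a log count axis, values past 4 drawn at 4, with black lines for the 6 compared caspases and dotted lines at 2-fold. *Casp12*, a bound at -1.89, and *Casp14* at 0.94 lie toward the tails, and the other 4 caspases lie between -0.36 and 0.17.

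Markers of round or articular chondrocytes and of other cells were read beside *Casp12*. Of 7 round or articular genes measured, 6 were 2-fold or more higher in the round zone, beside 6.25% of all compared genes. *Prg4* differed most, by 55.9-fold, while *Sfrp5* had a difference of 0.08. The part of these chondrocytes in the *Casp12* difference was not tested. Of 12 genes of perichondrium, tendon and fibroblasts, 11 were compared and 8 had signals that were 2-fold or more higher in the round zone, and 0 the other way, beside 6.25% and 4.28% of all compared genes. Their summed signal was 48426 in the columnar/hypertrophic zone and 119503 in the round zone. *Thy1* of this list was under the floor in both. Their part in the *Casp12* difference was not tested. Inflammatory caspases are also prominent in myeloid cells, so 12 myeloid and osteoclast genes were read too. Their summed signal was 1952 in the columnar/hypertrophic zone and 1754 in the round zone, most of it from *Ctsk*, with 1385 in the columnar/hypertrophic zone and 1231 in the round zone. Of these 12, 8 were under the floor in both zones, *Ptprc*, *Tyrobp* and *Aif1* among them. *Csf1r*, with 161 in the columnar/hypertrophic zone and 91.0 in the round zone, and *Lyz2*, with 139 in the columnar/hypertrophic zone and 100.3 in the round zone, were above the floor in both. *Cd68* was above it in the round zone alone, as *Casp12* was, with 63.4 in the columnar/hypertrophic zone and 102 in the round zone. The part of myeloid cells in the *Casp12* difference was not tested. Of 8 endothelial genes, 6 were compared, 5 of them higher in the round zone and 1 in the columnar/hypertrophic zone. By the 2-fold rule 1, *Esam*, passed toward the round zone with a bound of -1.08, beside 6.25% of all compared genes. The summed signal of the endothelial genes was 537 in the columnar/hypertrophic zone and 731 in the round zone. Of 8 skeletal muscle genes, 4 were compared, and all 4 were higher in the columnar/hypertrophic zone. By the 2-fold rule 2 of them passed, beside 4.28% of all compared genes, and the summed signal was 945 there and 254 in the round zone.

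The platforms on which caspases are activated were largely detected. Of 17 such genes listed, 13 were measured and 12 compared, 6 on either side. By the 2-fold rule, 0 passed toward the columnar/hypertrophic zone and 1 toward the round zone, beside 4.28% and 6.25% of all compared genes, with a median of 0.05. *Pycard*, encoding the inflammasome adaptor ASC, had signals of 219 in the columnar/hypertrophic zone and 522 in the round zone, a difference of -1.25. Its other 2 probe sets were under the floor in both zones, so this value rests on a single probe set. *Casp8ap2*, encoding FLASH, a caspase-8-binding protein also needed for histone mRNA processing, had signals of 880 in the columnar/hypertrophic zone and 1641 in the round zone, a difference of -0.90. On the other side, *Cycs*, encoding cytochrome c, which triggers the apoptosome, had signals of 6681 in the columnar/hypertrophic zone and 3901 in the round zone. Its difference was 0.78, and its other compared probe sets gave 0.90 and 0.52. *Tradd*, an adaptor of the TNF receptor, had signals of 413 in the columnar/hypertrophic zone and 247 in the round zone, a difference of 0.74. *Apaf1*, the scaffold that activates caspase-9, had signals of 1171 in the columnar/hypertrophic zone and 1190 in the round zone, a difference of -0.02.

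Caspase inhibitors and their antagonists were detected in both zones for all 10 genes measured. By the 2-fold rule 0 passed in either direction, beside 4.28% and 6.25% of all compared genes, and the median was -0.04. *Xiap*, encoding the inhibitor of apoptosis protein that binds caspase-9, had signals of 3020 in the columnar/hypertrophic zone and 5033 in the round zone, a difference of -0.74. Its other compared probe sets gave -0.88 and -0.46 and bounds of -0.90 and -0.37, except for one on the other side. That one, with signals of 234 in the columnar/hypertrophic zone and 123 in the round zone, gave 0.93. *Cflar*, encoding the caspase-8 decoy c-FLIP, had a difference of -0.37. Its other compared probe sets gave -0.32, -0.31 and, on the other side, 0.48. *Birc2* (cIAP1) stood at -0.30, and *Htra2*, whose product antagonizes these inhibitors, at 0.23.

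Death receptors and ligands were measured for 9 of 10 genes, of which 3, *Fasl*, *Tnf* and *Tnfsf10*, lay under the floor in both zones. Of the 6 compared, 5 were higher in the columnar/hypertrophic zone, 1 of them (*Fas*) by a bound of 0.09, while 53.2% of all compared genes were higher in the round zone. By the 2-fold rule 0 passed, beside 4.28% and 6.25% of all compared genes, and the median was 0.14. *Tnfrsf21* (death receptor 6) had signals of 411 in the columnar/hypertrophic zone and 267 in the round zone, a difference of 0.62, and its other probe set gave 0.81. *Tnfrsf10b*, the mouse TRAIL receptor, and *Tnfrsf25* were close to the floor, with differences of 0.43 and 0.14. *Tnfrsf1a*, the main TNF receptor, lay on the other side, with signals of 1335 in the columnar/hypertrophic zone and 1876 in the round zone, a difference of -0.49.

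Among 20 caspase substrates, 18 were compared, 11 of them higher in the columnar/hypertrophic zone and 7 in the round zone. The median was 0.09, and 1 gene passed 2-fold in each direction, beside 4.28% and 6.25% of all compared genes. *Gsn*, encoding the actin-severing protein gelsolin, had signals of 2537 in the columnar/hypertrophic zone and 997 in the round zone, 2.55-fold higher in the columnar/hypertrophic zone. Its 4 further probe sets above the floor gave differences of 0.44, 1.49, 1.61 and 1.75. *Gas2*, encoding a microfilament-associated protein, had signals of 130 in the columnar/hypertrophic zone and 327 in the round zone, a difference of -1.32, while its other probe set gave 0.35. *Lmna*, the lamin A gene, had signals of 1166 in the columnar/hypertrophic zone and 1962 in the round zone, a difference of -0.75. Of its other 4 probe sets, 3 lay on the same side and the dimmest gave 0.43. *Dffb*, encoding the caspase-activated DNase, had differences of -0.72 and -1.19 on its 2 probe sets, while *Dffa*, its inhibitor and the substrate itself, had 0.05. The inflammatory substrates *Il1b* and *Gsdmd* lay under the floor in both zones, and *Il18* had signals of 538 in the columnar/hypertrophic zone and 469 in the round zone.

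Calpains are calcium-dependent proteases reported to cleave caspase-12 in mouse cells. The calpain list of 7 genes also holds their small subunit, *Capns1*, and their inhibitor, *Cast*. All 7 were detected in the round zone and 6 in the columnar/hypertrophic zone, and 0 passed the 2-fold rule, beside 4.28% and 6.25% of all compared genes. The median of the whole list, *Cast* included, was -0.31, and it was -0.09 with a floor at the 20th percentile and -0.00057 with one at the 60th. *Cast*, encoding the calpain inhibitor calpastatin, had signals of 522 in the columnar/hypertrophic zone and 856 in the round zone, and its 3 probe sets gave differences of -0.71, -0.89 and -0.64. *Capn1* had a difference of -0.37, *Capn6*, which lacks the catalytic cysteine, -0.31, and *Capn7* 0.18. *Capn2*, encoding the catalytic subunit of m-calpain, had signals of 2218 in the columnar/hypertrophic zone and 2150 in the round zone.

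**Figure D3:**
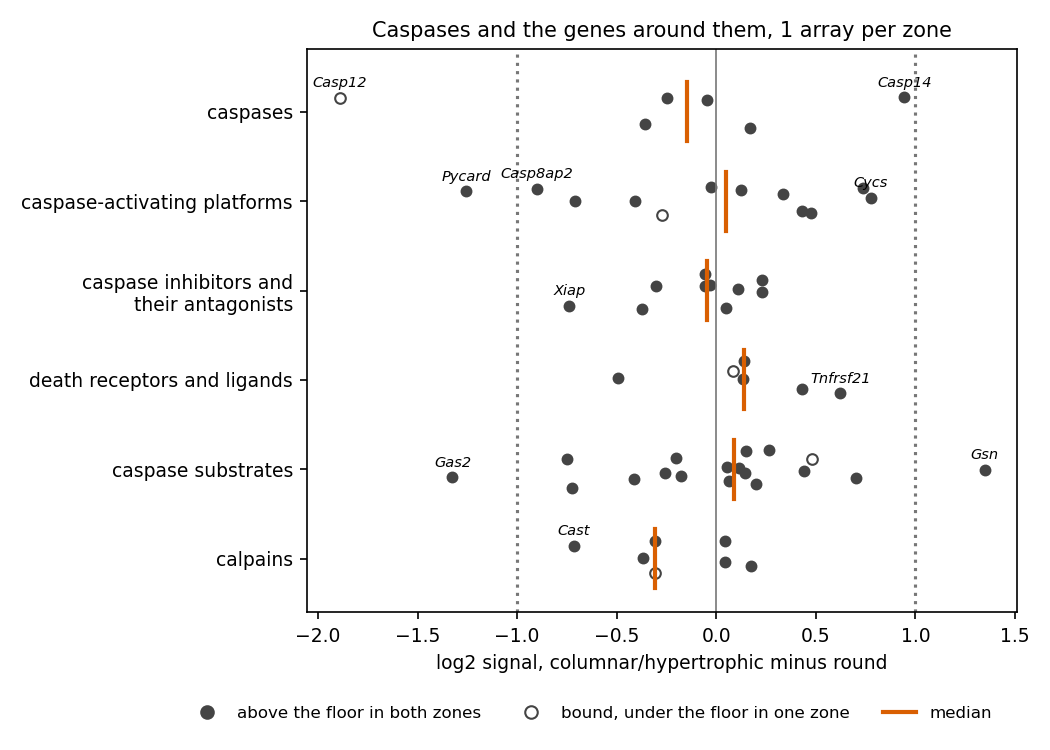
Difference (log2 signal, columnar/hypertrophic minus round) of each compared gene in the caspase set and 5 related lists, 1 array per zone. Filled circles are genes above the floor in both zones, open circles are bounds, bars are medians and dotted lines mark 2-fold. *Casp12*, *Pycard* and *Gas2* lie past 2-fold on the side of the round zone and *Gsn* on the side of the columnar/hypertrophic zone, and the medians lie between -0.31 and 0.14.

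**Figure D4:**
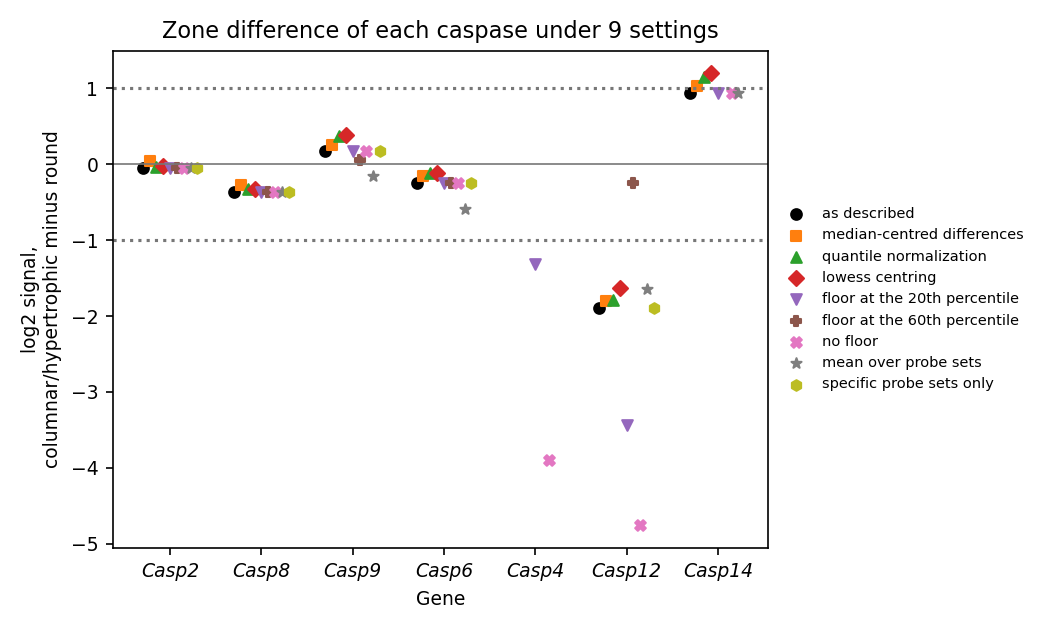
Difference (log2 signal, columnar/hypertrophic minus round) of the caspases compared under at least 2 of 9 settings, with dotted lines at 2-fold. *Casp2*, *Casp8*, *Casp9* and *Casp6* stay within 2-fold under every setting drawn, *Casp12* runs from -4.76 with no floor to -0.24 with the highest floor, and *Casp14* passes 2-fold under the 3 rescalings.

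How far the caspase differences moved with the settings is shown in the plot of settings. *Casp8* ran from -0.36 to -0.27 and *Casp6* from -0.59 to -0.11. Neither could be moved by the floors, as the signals of their brightest probe sets were above all of them. *Casp8*, with 1 probe set, was moved by the rescalings alone, and *Casp6* also by averaging over probe sets. Their staying on the side of the round zone therefore does not settle a direction with 1 array per zone. *Casp2* ran from -0.05 to 0.04 and *Casp9* from -0.16 to 0.38, so neither has a settled direction. *Casp14* ran from 0.94 to 1.20 and was not compared on specific probe sets alone or with the floor at the 60th percentile. *Casp12* lay on the side of the round zone under every setting, which no change of floor or of probe sets could have reversed.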

How the data were processed

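RNA of knockout femoral cartilage was hybridized to 2 GeneChip arrays, 1 per zone, grouped by the sample titles. The authors deposited linear intensities, 1 per probe set. MAS5 is named, without a version, in the submitters' processing notes, while the methods name robust multiarray analysis, whose log values were not used here. The 2% trimmed means were 496 in the columnar/hypertrophic and 497 in the round array, so no further scaling was applied. The number of arrays limits the precision. Names came from the platform annotation. Of 45037, 34945 had 1 gene symbol, 932 several and 9160 none here, and 34741 of those with 1 symbol were found in RefSeq by Entrez identifier, with 0 symbols changed.

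The floor, difference and size rule are as given in the report. Per list, up to 4 genes detected in both zones with the largest difference and any with a 2-fold bound were named, and further genes were named after their values were seen. The caspases and gene lists were chosen with earlier results of these data known. The alternatives were median centring, quantile normalization, lowess centring (fraction 0.3) and a floor at the 20th or at the 60th percentile or none at all. Further ones were averaging over probe sets, using specific probe sets and a 3-fold rule. Probe sets were called specific when their identifier had no letter, such as a, s or x, before the final _at. For this comparison the steps were also tested on simulated data built on the signals of 45037 probe sets, where 99.5% of 200 probe sets changed 4-fold were recovered. Those 200 were drawn only from probe sets well above the floor, with an assumed noise. The recovery therefore does not cover bounds or signals near the floor. Python 3.11.15 was used with pandas 2.3.3, numpy 2.4.6, matplotlib 3.10.9 and statsmodels 0.14.6.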

Additional observations from a re-analysis of the deposited data

How the results depend on the processing

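No paired analysis was possible because neither zone had a second array. With 1 array per zone, no setting measures the error between animals, and values near the floor of 65.9 are the least certain. The main setting is the floor of 65.9, the brightest probe set of a gene and no rescaling. Under it, 0 caspases were 2-fold or more higher in the columnar/hypertrophic zone. After median centring, quantile normalization or lowess centring there was 1 (*Casp14*). The shares of all compared genes were 5.12%, 5.05% and 5.28% in turn, against 4.28% under the main setting. Toward the round zone there were 2 (*Casp12* and *Casp4*) when the floor was at the 20th percentile or left out. There were 0 when it was at the 60th percentile, against 1 under the main setting. The shares of all compared genes toward the round zone were 9.32%, 13.9% and 4.19% in turn, against 6.25% under the main setting. The changes with the floor follow from its construction. So does that with median centring, which shifts every difference by the same amount and moved *Casp14* from 0.94 to 1.03. The cause of the others was not tested.

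When the floor was at the 20th percentile, or there was no floor, substrates 2-fold higher in the columnar/hypertrophic zone numbered 2 and 2, platforms higher in the round zone 2 and 3, death receptors and ligands higher in the columnar/hypertrophic zone 1 and 1, and those higher in the round zone 2 and 1. Of all compared genes, 6.46% and 10.7% passed toward the columnar/hypertrophic zone and 9.32% and 13.9% toward the round zone. Substrates higher in the round zone were 0 under the 60th percentile floor, with the mean over probe sets and on specific probe sets. The shares of all compared genes there were 4.19%, 5.43% and 6.41%. On specific probe sets *Gas2* was read by its other probe set, at 0.35, since the identifier of its brighter one ends in _a_at. Among all compared genes, 546 were 2-fold higher in the columnar/hypertrophic zone and 798 in the round zone under the main setting. They numbered 674 and 602 after lowess centring, and 1940 and 2524 with no floor. Of the other values of the main comparisons, 129 were within the tolerance, which for differences was the pooled SD of 0.34 and for counts 1.5 times. It is wide for list medians. That of the caspase inhibitors was 0.05 when median-centred and that of the substrates -0.10 with the mean over probe sets. That of the platforms was -0.02 with no floor, and each was on the other side of 0 from its value under the main setting.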

Other observations

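The protein-coding genes on either side of the *Casp1*, *Casp4* and *Casp12* cluster on chromosome 9, 3 on each side in the RefSeq order, were read after the values of *Casp12* were seen. *Pdgfd*, the platelet-derived growth factor D gene next to *Casp12*, had signals of 282 in the columnar/hypertrophic zone and 1201 in the round zone on its brightest probe set, a log2 difference of -2.09, and its second probe set gave -1.84. *Dync2h1*, encoding the heavy chain of the ciliary dynein motor, had signals of 414 in the columnar/hypertrophic zone and 869 in the round zone, a log2 difference of -1.07, and *Ddi1*, between *Pdgfd* and *Dync2h1*, was under the floor in both. On the other side of the cluster, the brightest probe set of the glutamate receptor gene *Gria4* gave -0.69, *Msantd4* -0.04 and *Kbtbd3* -0.56. The *Gria4* signal was 67.4 in the columnar/hypertrophic zone, just over the floor, and 109 in the round zone. Of these neighbours, *Pdgfd* and *Dync2h1* passed 2-fold toward the round zone, as did 6.25% of all compared genes. *Dync2h1* lay close to 2-fold, and the neighbours were read under the main setting alone.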
